A study of Homo sapiens with 8 samples.

Results

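CTCF binding was compared between replicate ChIP-seq libraries of the human osteosarcoma line U-2 OS and described by the genes at the bound sites. The members were all peaks of the CTCF replicate lists on chromosomes 1 to 22 and X, 42493 in replicate 1 and 35765 in replicate 2, out of 93632 peaks in the 5 lists of the series. A replicate 1 peak that overlapped a replicate 2 peak by at least 1 bp was called a shared site. There were 33936 shared sites, or 79.9% of replicate 1. In the other direction 34231 replicate 2 peaks overlapped replicate 1, or 95.7%. The remaining 8557 peaks were found only in replicate 1 and 1534 only in replicate 2.

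Per the labels, both libraries came from clone C32, which carries a FLAG and Halo tag at the endogenous CTCF gene and is 1 clone, and were made with antibody ab128873 after 6 min in 1% formaldehyde. The text describing the series names unmodified cells instead, and a legend of the study names the V5-Halo-SP1 cells for the CTCF peaks, but grouping here follows the labels. The series also holds 1 library for each of 2 Sp1 antibodies and 1 IgG library, made in a V5-Halo-SP1 knock-in line whose titles call it parental, and 3 input libraries, which were not analysed here. The study's methods speak of biological replicates in general, but nothing states that the CTCF replicates came from separate cultures. With 1 group of 2 libraries and no read counts no p-value was computed. Depth is unknown from peak lists.

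CTCF is a DNA-binding protein with a row of zinc fingers that read a long motif. At many of its sites it halts the cohesin complex, which extrudes chromatin loops, and so marks loop anchors and domain borders. It also acts as an insulator at imprinted loci and helps choose promoters in the protocadherin gene clusters.

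The strongest site of each main position class, among promoters that of a coding gene, is shown with 50 bases on either side of the summit. So are the strongest peaks found in only 1 replicate that lay outside a UTR. All sequences are from the plus strand of hg38. Capitals mark the match to the 12-base CTCF core nearest to the summit with at most 1 mismatch. The core was searched on both strands as CCANNAGNNGGC, with each N limited to a pair of bases. The CLPB promoter site lay at chr11:72434253-72434353, the ZNF219 coding exon site at chr14:21092610-21092710 and the intron site in NCF4-AS1 at chr22:36856488-36856588. The intergenic site upstream of the pseudogene ENSG00000276388 lay at chr9:138126354-138126454. The replicate 1 only site at RRBP1 lay at chr20:17681264-17681364, and the replicate 2 only site nearest to CYTIP at chr2:157509944-157510044.
CLPB: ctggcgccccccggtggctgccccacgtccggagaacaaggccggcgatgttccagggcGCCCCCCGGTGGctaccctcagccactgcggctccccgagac
ZNF219: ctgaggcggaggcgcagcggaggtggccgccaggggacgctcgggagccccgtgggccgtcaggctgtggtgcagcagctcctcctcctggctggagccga
NCF4-AS1: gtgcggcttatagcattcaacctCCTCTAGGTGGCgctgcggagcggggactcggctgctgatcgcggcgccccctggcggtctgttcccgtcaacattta
ENSG00000276388: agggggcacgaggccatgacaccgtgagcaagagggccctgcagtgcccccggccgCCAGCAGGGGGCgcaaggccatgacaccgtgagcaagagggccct
RRBP1: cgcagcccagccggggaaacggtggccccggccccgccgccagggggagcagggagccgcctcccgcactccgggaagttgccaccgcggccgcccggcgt
CYTIP: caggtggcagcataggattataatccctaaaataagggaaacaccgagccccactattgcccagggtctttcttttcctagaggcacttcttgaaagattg
The intergenic sequence held the exact core, the CLPB and NCF4-AS1 sequences held it with 1 mismatch, and no match was found in the other three. No match says only that these letters were not in this window.

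Over all peaks, the exact core lay within 50 bp of the summit in 18.7% of shared sites (95% Wilson interval 18.3 to 19.1, covering counting error only, as for all ranges in brackets below), 4.71% of replicate 1 only peaks (4.28 to 5.18) and 1.17% of replicate 2 only peaks (0.744 to 1.85). In windows of the same length 500 bp away the shares were 0.0413%, 0.0234% and 0 of 1534, which allows up to 0.250% (Wilson upper bound). With 1 mismatch allowed the core was at 57.0% of shared sites, 27.1% of replicate 1 only peaks and 8.21% of replicate 2 only peaks, against 0.678%, 0.935% and 0.848% at the distant windows. Each class exceeded its distant windows. The classes differed in strength, which is described next, and in the weakest of 4 strength groups of replicate 1 the exact core was at 5.99% of shared sites (5.201 to 6.88) and 4.50% of replicate 1 only peaks (4.06 to 4.99). In the weakest group of replicate 2 it was at 7.42% of shared peaks (6.85 to 8.04) and 1.17% of replicate 2 only peaks. Strength still differed inside these groups. Median folds of shared and unshared peaks were 6.94 and 5.44 in the weakest group of replicate 1, and 5.64 and 3.08 in that of replicate 2.

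Shared sites were also the strong and wide ones. Fold enrichment, the ratio over the control given by the peak caller, had a median of 41.7 at shared sites in replicate 1. It was 5.75 at replicate 1 only peaks and 3.08 at replicate 2 only peaks. Median widths were 689, 274 and 234 bp. When replicate 1 was cut into 4 equal strength groups by fold, all but 1 of the 10623 peaks in the strongest group were shared, and 28.9% of the weakest group. Each of the 3 stronger groups of replicate 2 was shared in full, so all 1534 replicate 2 only peaks fell in its weakest group, at folds from 1.21 to 7.32. The lists end near a q-value of 0.05, and the rule itself was met narrowly by few peaks. Only 6 shared sites overlapped by under 100 bp, with a median fold of 3.95, and 8 replicate 1 only peaks, with a median fold of 4.09, had a replicate 2 peak under 100 bp away.

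By gene position, 22.5% of replicate 1 peaks and 20.6% of replicate 2 peaks (21.5% ± 1.32, SD, n = 2) had the summit no more than 1 kb from an annotated start site, here called a promoter, while promoters made up 7.21% of the genome. Introns held 41.2% and 40.7% (41.0% ± 0.310) and intergenic sequence 31.2% and 33.5% (32.3% ± 1.61), against 51.3% and 38.2% of the genome. Coding exons held 1.42% and 1.35% against 0.784% of the genome. At each of these positions the 2 lists differed by less than either differed from the genome.

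The peaks found in only 1 replicate did not share that distribution. Promoters held 20.8% of shared sites (20.3 to 21.2), 29.2% of replicate 1 only peaks (28.2 to 30.2) and 13.7% of replicate 2 only peaks (12.1 to 15.5). Intergenic sequence held 32.3%, 26.7% and 61.0% of the same classes. Replicate 1 only peaks thus lay at promoters more often than shared sites, by more than the difference between the 2 full lists. Within the weakest strength group of replicate 1 the shares were closer, with overlapping intervals. Promoters there held 27.1% of shared sites (25.6 to 28.7) and 29.5% of replicate 1 only peaks (28.5 to 30.5). In the next group they held 20.1% (19.3 to 20.9) and 26.8% (24.1 to 29.6), but median folds there still differed, at 16.4 and 10.6. Replicate 2 only peaks lay at promoters less often than shared sites, though still above the 7.21% of the genome, and more often in intergenic sequence, to which the clustered peaks described below contributed.

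**Figure D1:**
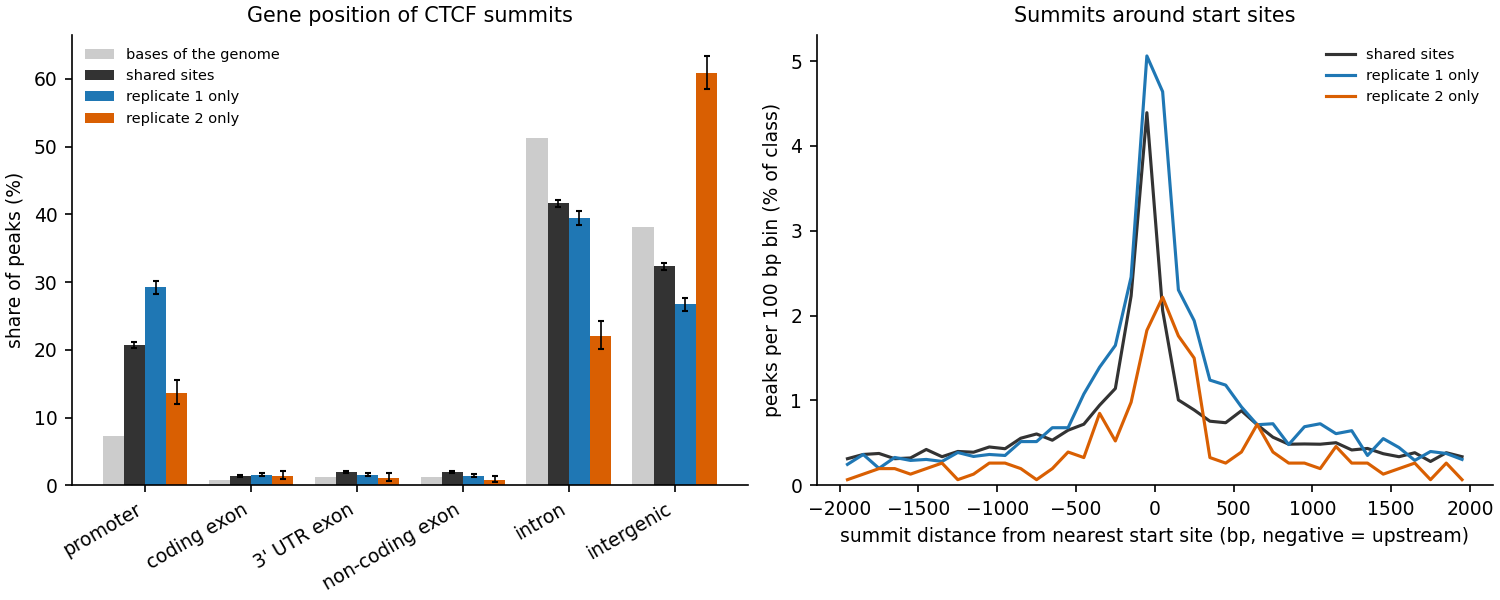
Left, share of peaks in percent by gene position for shared sites, replicate 1 only and replicate 2 only peaks, with 95% Wilson intervals, beside the share of genome bases; 5′ UTR exons, under 0.1% of shared sites, are not drawn. Right, peaks per 100 bp bin as a percent of each class against the summit's distance from the nearest start site; shared sites peak just upstream of it, at 4.39% in 1 bin.

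Seen from replicate 1, 73.8% of promoter peaks were shared (72.9 to 74.7), 80.7% of intron peaks and 82.7% of intergenic peaks (82.1 to 83.4). Promoter peaks were also weaker, with a median fold of 21.5 in replicate 1 against 33.3 for intergenic peaks. The shares computed from the strength deciles of the peaks alone were 74.4%, 80.9% and 82.1%, all within 1 percentage point of the observed shares of replicate 1. Within the weakest group 27.3% of promoter peaks and 31.6% of intergenic peaks were shared, and within the next group 87.8% and 91.9%. Seen from replicate 2, 97.2% of promoter peaks and 92.2% of intergenic peaks were shared, and in its weakest group 89.8% and 69.5%. Strength deciles alone gave 95.1% and 94.8% for replicate 2, below the observed share at promoters and above it in intergenic sequence.

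Shared promoter sites lay on the upstream side of the start site in 58.7% of cases (57.6 to 59.9). Replicate 1 only promoter peaks were balanced, with 49.2% upstream (47.2 to 51.1), and of replicate 2 only promoter peaks 41.0% were upstream (34.5 to 47.7). The interval of the last class came from 210 peaks. The median distance to the start site was alike in the 3 classes, between 204 and 232 bp.

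Base composition went with sharing, in opposite directions in the 2 lists. Of replicate 1 peaks with under 40% GC in the 500 bp around the summit 83.4% were shared (82.7 to 84.2), and of those with 70% or more 62.0% were (59.6 to 64.3). Replicate 2 went the other way, with 93.3% of its peaks shared under 40% GC (92.8 to 93.8) and 98.0% at 70% or more (97.0 to 98.7). Its classes in between were alike, at 96.34%, 96.75% and 96.16%. The clustered windows described below held 470 replicate 2 only peaks, with a median GC content of 39.1%. Their part in the low share under 40% GC was not tested. The GC-rich peaks of replicate 1 were weaker, with a median fold of 15.9 against 27.8. Among replicate 1 peaks of fold 10 or more, 10.7% of the 974 GC-rich peaks had no replicate 2 peak (8.89 to 12.8), against between 1.40% and 2.32% in the 4 classes of lower GC. Of the GC-rich peaks 82.6% were at promoters.

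At shared sites, too, the fold ratio between replicates differed in GC-rich sequence, and was nearly flat up to 60% GC. The log2 ratio of replicate 2 to replicate 1 had a median of -0.89 over all shared sites, so replicate 2 folds were lower at most sites, and only 925 sites (2.73%) were higher in replicate 2. The median was -0.88 below 40% GC, -0.86 between 40% and 50% and -0.89 between 50% and 60%. It was -0.97 between 60% and 70%, and -1.29 at the 992 shared sites with 70% or more. In the GC-rich class it was -1.28 at promoters and -1.31 elsewhere. The ratio in GC-rich sequence was thus lower inside and outside promoters.

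**Figure D2:**
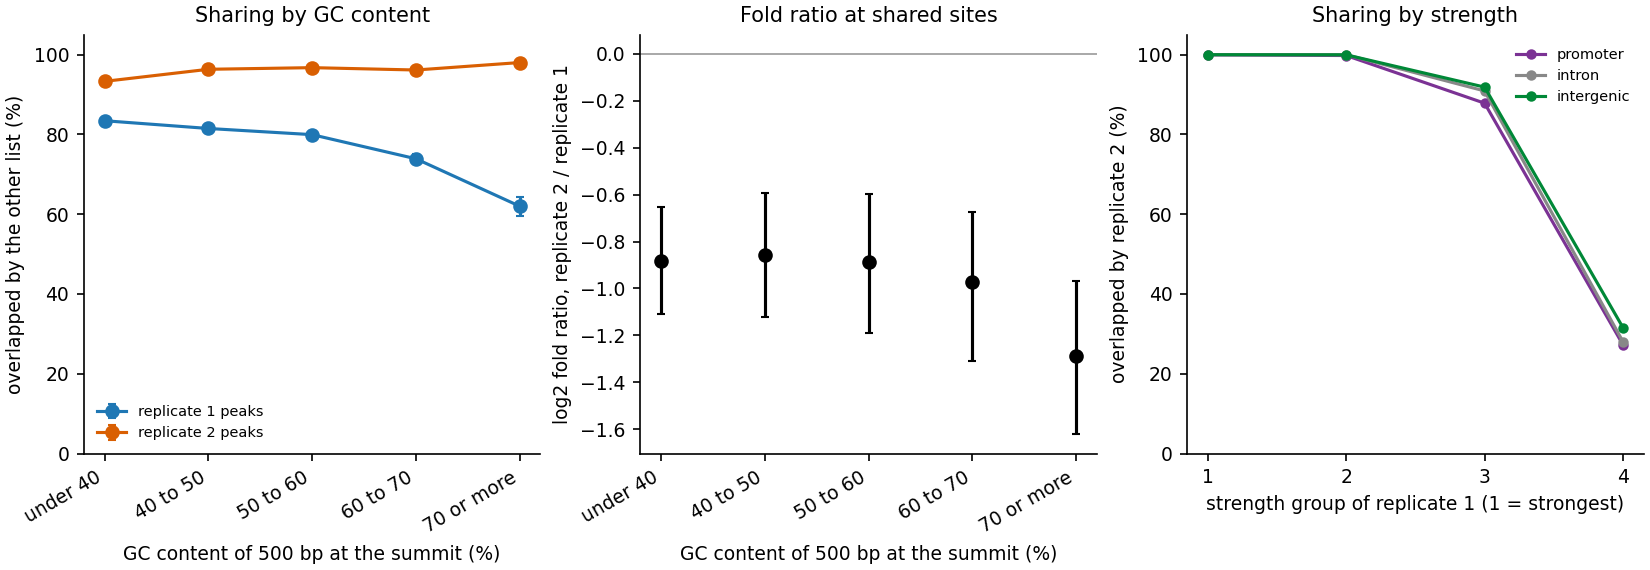
Left, percent of peaks of each replicate overlapped by the other list, by GC content of 500 bp at the summit, with 95% Wilson intervals; replicate 1 falls from 83.4% to 62.0%. Middle, median log2 fold ratio of replicate 2 to replicate 1 at shared sites, with bars from the lower to the upper quartile. Right, percent of replicate 1 peaks overlapped by replicate 2 by strength group (1 is the strongest) for promoter, intron and intergenic peaks.

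The strongest replicate 1 only peaks were GC-rich promoters. Of the 25 with a fold of 20 or more, 22 lay at promoters, and their median GC content was 75.7%, against 46.7% at the 24185 shared sites of that strength. VPS37D, an ESCRT-I subunit gene, had a peak with a fold of 79.8 and 79.2% GC, 3 bp from a start site, and no replicate 2 peak within 10 kb of a start site. RRBP1, a ribosome-binding protein of the endoplasmic reticulum, had one of fold 51.2 with 82.4% GC, although another RRBP1 promoter site was shared at folds of 63.8 and 22.9. CARM1, an arginine methyltransferase, had one of fold 40.5 with 84.0% GC, while a site 6958 bp from a CARM1 start site was shared at 134 and 63.6. CYB561 (29.6) and SPIN1 (26.6) were the next coding promoters. The strongest one away from a promoter, 6936 bp upstream of the homeobox gene OTP, had a fold of 33.9.

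Replicate 2 only peaks were weak throughout. The strongest had a fold of 7.32 and lay 21033 bp upstream of CYTIP. At coding promoters the strongest were KIF11, a mitotic kinesin, at 6.06, SDHC, a subunit of succinate dehydrogenase, at 5.76, IFNL2 at 5.75, PPP1R18 at 5.63 and MYADM at 5.45.

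Many replicate 2 only peaks were also clustered. When the genome was cut into windows of 1 Mb, 20 windows on 9 chromosomes held 10 or more of them, 470 in all (30.6%), and 469 of these were intergenic. Of the windows 15 overlapped no protein-coding gene. The most, 76 and 52, lay in chr1:124000001-125000000 and chr1:123000001-124000000, where hg38 carries modelled centromeric sequence. The next window, chr13:17000001-18000000, held 38 and not a single replicate 1 peak. The median fold of the clustered peaks was 2.45, against 3.35 for the others. The same windows held 49 of the 90 IgG peaks, and 178 replicate 1 peaks, of which 34 were not shared. The IgG peaks were uneven, with 24 in chr4:49000001-50000000 and 7 in chr10:41000001-42000000. In the windows named above, in the order given, they numbered 0, 1 and 0. Outside them 43.8% of replicate 2 only peaks were intergenic and 19.6% were at promoters, and 97.0% of replicate 2 peaks were shared. Over all peaks, an IgG peak was overlapped by 1.24% of replicate 2 only peaks and 0.109% of shared sites. The part of IgG signal in the replicate 2 only peaks was not tested.

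Sp1 peaks, from a different line, were another readout the rule did not use. A peak of Sp1 antibody 1 overlapped 5.40% of shared sites (5.17 to 5.65), 7.88% of replicate 1 only peaks (7.33 to 8.47) and 7.11% of replicate 2 only peaks (5.92 to 8.50). The weakest strength group of replicate 1 holds 7550 of the 8557 replicate 1 only peaks. There the order was the reverse, at 10.1% of shared sites (9.10 to 11.2) and 8.20% of replicate 1 only peaks (7.60 to 8.84). Shared sites of that group still had the higher median fold. With Sp1 antibody 2 the shares over all peaks were 3.36%, 4.72% and 6.00%.

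Chromosomes differed in density far more than in sharing. Peaks per Mb were highest on chromosome 19, at 27.7 in replicate 1 and 23.4 in replicate 2, and lowest on chromosome 13, at 9.03 in replicate 1, and X, at 7.71 in replicate 2. Across 23 chromosomes, which share library and threshold, the densities of the 2 lists had a Spearman rho of 0.991, and rho with protein-coding genes per Mb was 0.900 and 0.876. The shared part of replicate 1 ran only from 75.2% on chromosome 21 to 81.5% on chromosome 19, and at most 2.55 percentage points (chromosome 13) from the share computed from strength. The shared part of replicate 2 ran from 90.8% on chromosome 13, where strength alone gave 95.01%, to 98.9% on X, where it gave 98.0%. The gap on chromosome 13 was the largest of either list, and 2 of the clustered windows lie on that chromosome. Chromosome 1 held 248 of the 1534 replicate 2 only peaks, of which 165 were in the 4 clustered windows there. Of the coding genes on each chromosome, between 13.6% (30 of 220 on chromosome 21) and 28.3% (336 of 1186 on chromosome 17) had a promoter peak in both replicates, and on X 17.1%. Chromosome 19, the densest in peaks, stood at 21.1%, below the 24.3% of all coding genes named below.

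**Figure D3:**
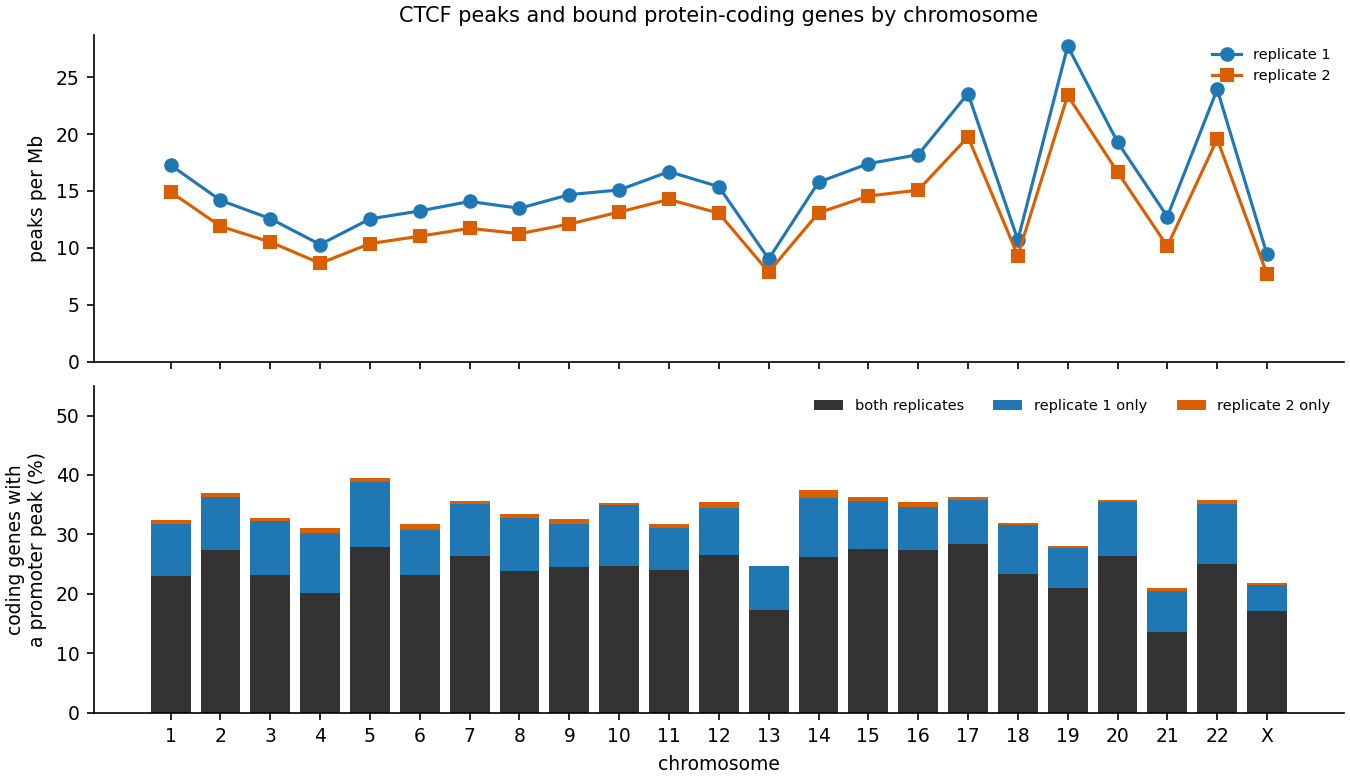
Top, CTCF peaks per Mb of sequence without gaps on each chromosome in replicates 1 and 2; both are highest on chromosome 19. Bottom, percent of protein-coding genes on each chromosome with a promoter peak in both replicates, replicate 1 only or replicate 2 only; the share in both runs from 13.6% on chromosome 21 to 28.3% on chromosome 17.

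A gene was counted as bound in a replicate when a summit lay within 1 kb of the start site of any of its transcripts. Of 62062 annotated genes 7862 were bound in both replicates, or 12.7%. Of 19970 protein-coding genes 4843 were bound in both, or 24.3%, and a further 1643 in replicate 1 only and 132 in replicate 2 only, so that 8.89% were bound in 1 replicate only. Thus 74.7% of the coding genes bound in replicate 1 and 97.4% of those bound in replicate 2 were bound in both. Since neighbouring genes can share a peak, the 4843 genes rested on 4449 replicate 1 peaks. When both lists held the same number of top peaks, the counts were 4617 in both, 521 in replicate 1 only and 358 in replicate 2 only, so replicate 1 had the larger number at either list length, by a smaller margin at equal length.

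Among other gene classes, 11.0% of 18756 lncRNA genes were bound in both replicates, 3.64% of 14835 pseudogenes, 3.85% of 7015 small RNA genes and 20.0% of 411 immune receptor segments. Of the promoter peaks of replicate 1, 71.5% were shared when the nearest start site belonged to a protein-coding gene (70.4 to 72.5) and 78.1% for a lncRNA (76.3 to 79.8). Peaks nearest to coding genes were more often weak, with 34.3% in the weakest strength group against 27.7% for lncRNA. Within that group 26.2% and 27.3% were shared, a difference inside the intervals, but within the next group 86.5% (84.7 to 88.1) and 91.4% (88.3 to 93.7) were, with intervals that did not overlap.

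Coding genes bound in both replicates had median promoter folds of 42.5 in replicate 1 and 20.6 in replicate 2. The median was 5.43 for replicate 1 only genes and 3.53 for replicate 2 only genes. At 140 of the 1643 replicate 1 only genes the fold reached 10. At 18 of the 1643 a replicate 2 peak overlapped the promoter peak with its summit outside the promoter, including the highest, ZNF593OS, at 109.8. Of the 132 replicate 2 only genes 7 reached a fold of 10, led by ZNF250 at 54.1, and 19 of the 132 had a promoter peak that a replicate 1 peak overlapped with its summit outside the promoter. Such genes differed by where the summit was placed and not by absence of a peak.

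Ranked by the mean log2 fold of both replicates, as for all strongest shared sites here, the strongest coding promoters bound in both were CLPB, a mitochondrial disaggregase, at folds of 293 in replicate 1 and 178 in replicate 2, ATP23 at 304 and 154, and ACBD4 at 287 and 156. By replicate 1 alone, some promoters with a lower fold in replicate 2 stood higher, such as COMTD1 at 402 and 98.5, named after its values were seen. Over all genes the strongest promoters belonged to the subtelomeric pseudogene DDX11L5 (494 and 424) and to the lncRNA ENSG00000236501 (440 and 264), but near-identical copies of DDX11L genes make the first uncertain. Among coding exons ZNF219 (322 and 80.6), LTB, which encodes lymphotoxin beta (230 and 109), and MED15, a Mediator subunit (215 and 114), were strongest. Among 3′ UTR exons they were CFAP44 (303 and 162), BDH1 (282 and 137) and GPR65 (215 and 142). Among introns they were NCF4-AS1 (376 and 187), RPTOR, the mTORC1 scaffold (299 and 194), and CPNE5 (312 and 175). The strongest intergenic site, near ENSG00000276388, had 664 and 218. Replicate 2 was the lower in every one of these pairs.

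**Figure D4:**
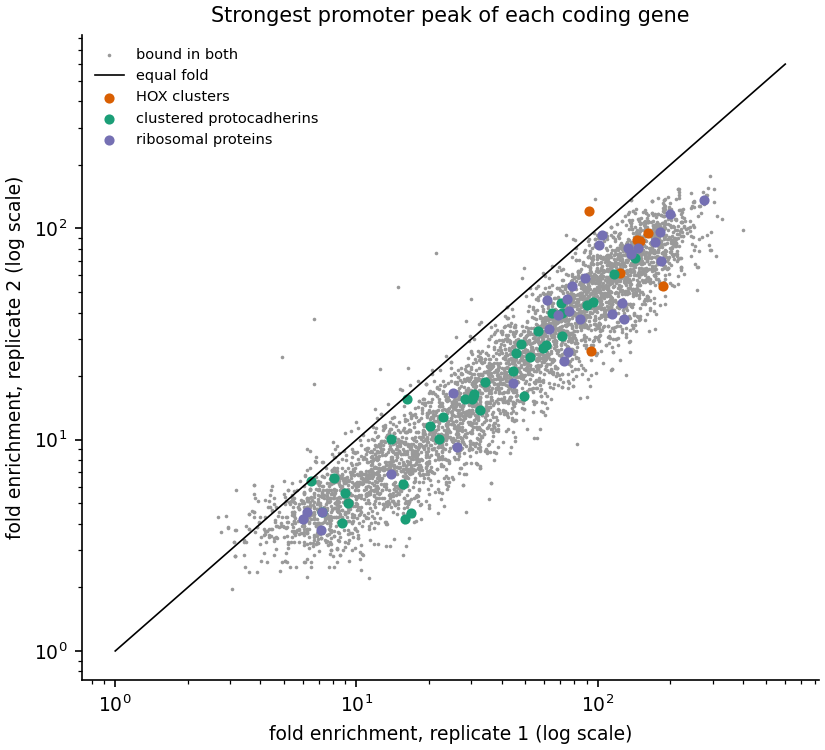
Fold enrichment of the strongest promoter peak in replicate 1 against replicate 2, both on log scales, for protein-coding genes bound in both replicates, with 3 gene lists coloured and a line at equal fold. Most genes lie below the line, and HOXC10 (92.5 and 121) lies above it.

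Some shared sites departed from the common ratio. Toward replicate 1 the largest departure was at the CPNE2 promoter, with folds of 82.4 and 9.55 and 76.7% GC, at summits 1 bp apart. Next came a promoter site of the pseudogene ANKRD20A7P (53.2 and 6.67) and an intergenic site on chromosome 10 (24.3 and 3.34). Toward replicate 2 the largest were at TARID (7.84 and 122), CCBE1 (4.34 and 64.0) and RAB26 (4.61 and 31.97), but there the paired summits lay 732, 873 and 882 bp apart, so that different summits were paired. With summits within 100 bp, which held for 99.4% of shared sites and was asked for after the values were seen, the largest ratio toward replicate 2 was at an intron site of HSF2BP, with folds of 5.66 and 10.8.

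Within genes, 8973 protein-coding gene intervals (44.9%) held a summit of each replicate, and their median length was 60.4 kb. Intervals with replicate 1 summits only numbered 1266, with a median of 30.3 kb, and those with neither had 12.9 kb. The most shared summits lay in long genes. RBFOX1, a neuronal splicing factor gene of 2474 kb, held 22, KAZN and PDE4D 20 each, and DLG2 and GSE1 19 each. DLG2 had none at its promoter in either replicate. Per kb, among coding genes of at least 20 kb with at least 5 shared summits, FXYD2 was highest with 5 in 27.9 kb. FDX1, SEMA6B and ENSG00000258881 were also among the highest of these. Within 5 kb of a start site, ANKMY1, APBB2, ARHGAP22, CACNA1A and COL13A1 each had 6. They were tied and stood in alphabetical order, so other coding genes with as many may not be named.

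Gene lists were read against the 24.3% of all coding genes bound in both replicates, as a description without a test. Of 53 clustered protocadherin genes, cell-surface adhesion genes whose promoters are chosen one by one in neurons, 36 were bound in both (67.9%) and 3 in replicate 1 only. Their median folds were 31.7 and 16.0, below the 42.5 and 20.6 of all coding genes bound in both. PCDHAC1 had 142 and 72.3, PCDHA4 117 and 60.6, while PCDHA13, PCDHGA11 and PCDHGB6 were found in replicate 1 only, at 8.68, 9.46 and 9.26.

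Of 20 cohesin and CTCF partner genes 9 were bound in both (45.0%, against 24.3% of all coding genes). ESCO1, a cohesin acetyltransferase gene, had folds of 171 and 96.6, PDS5A 140 and 86.0, and STAG1 145 and 32.5. CTCF itself, the tagged gene, had a promoter peak in replicate 1 only, of fold 17.7 in sequence of 77.5% GC, 201 bp from a start site. RAD21 was also bound in replicate 1 only, at 5.78 in sequence of 38.3% GC. That summit, chr8:116851335, lay 460 bp from a transcript start site inside the gene interval, chr8:116845934-116874776.

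Of 31 imprinted genes 11 were bound in both (35.5%). The list mixes coding genes, with a background of 24.3%, and lncRNA genes such as H19 and MEG3, with one of 11.0%. H19, whose upstream control region is a classic CTCF insulator, had folds of 63.7 and 30.6 at its promoter, PEG3 142 and 36.6, and PEG10 and SGCE, which share a promoter peak, 123 and 94.5. CDKN1C was bound in replicate 1 only at 18.8, and MEG3 in replicate 2 only at 5.05.

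Of 84 ribosomal protein genes 31 were bound in both (36.9%), 8 in replicate 1 only and 2 in replicate 2 only. RPL10A had folds of 200 and 117 and RPL36 183 and 69.97. Those in replicate 2 only were RPL4 at 8.18 and RPL13A at 4.85. The RPL4 fold exceeded the 7.32 maximum of replicate 2 only peaks, so a replicate 1 peak overlapped its peak with the summit elsewhere. The median of those bound in both was 78.1 and 40.9.

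Of 39 HOX genes 7 were bound in both (17.95%, below the 24.3% of all coding genes) and 6 in replicate 1 only. HOXB5 had folds of 161 and 95.1 and HOXA10 150 and 87.7, whereas HOXC10 was higher in replicate 2, at 92.5 and 121. Among 24 bone lineage genes 8 were bound in both (33.3%), led by COL1A1, the main collagen of bone, at 201 and 114. RUNX2, the osteoblast transcription factor, was weak at 6.46 and 2.50. Among 24 genes of the tumour suppressor and cell cycle list 7 were bound in both (29.2%, near the 24.3% of all coding genes). They included CDK4 at 130 and 59.2 and CDK6 at 131 and 20.2. E2F1 was bound in replicate 1 only at 10.9.

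The large families, like the HOX genes, lay below the 24.3% of all coding genes. Of 508 zinc finger genes 99 were bound in both (19.5%), with ZNF385A at folds of 217 and 148 and ZNF423 at 248 and 91.6, and 33 in replicate 1 only. The 3 in replicate 2 only included ZNF250, whose peak was overlapped by a replicate 1 peak with its summit elsewhere. Of 415 olfactory receptor genes 7 were bound in both (1.69%), with OR51D1 at 124 and 61.4. None of the 5 beta-globin genes had a promoter peak in either replicate.

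**Figure D5:**
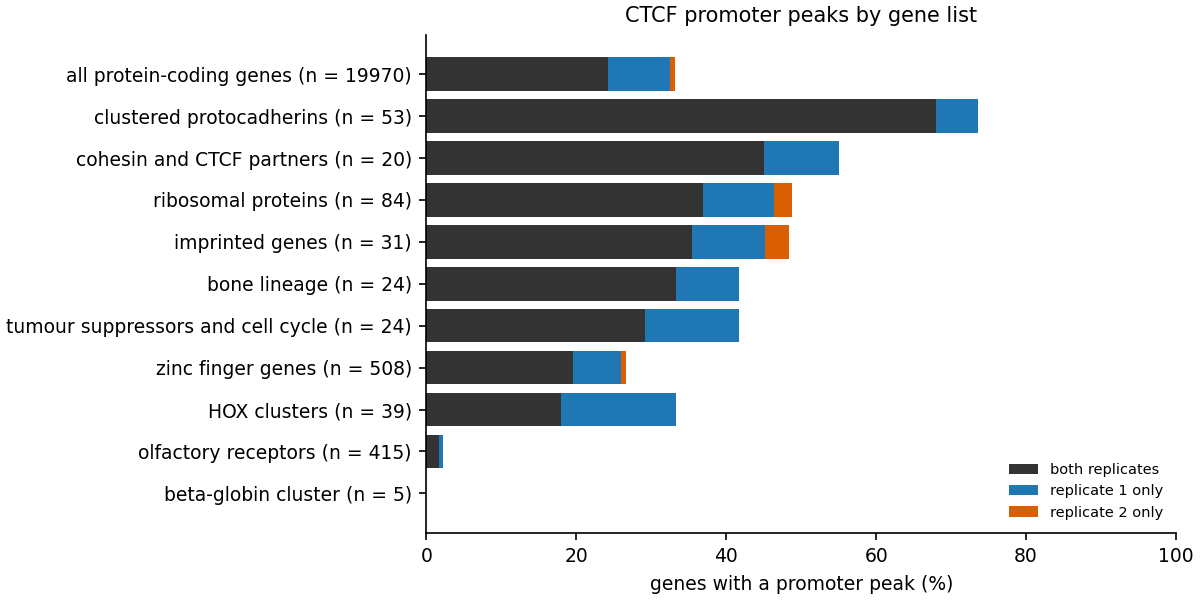
Percent of genes in each list with a promoter peak in both replicates, replicate 1 only or replicate 2 only, with the number of genes in brackets and all protein-coding genes at the top. Clustered protocadherins reach 67.9% in both and olfactory receptors 1.69%.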

How the data were processed

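CTCF was measured by ChIP-seq in 2 libraries. Per the labels, the authors used cutadapt 2.6 for trimming and Bowtie2 2.4.5 for alignment to hg38, and called peaks per library with MACS2 2.2.7.1. The labels also name SAMtools 1.15.1, deepTools 3.5.4 and bedtools 2.27.1. The study's methods give other versions of some tools. The study's methods describe merged control replicates for calling peaks and an exclusion list for coverage tracks, but do not say whether either applies to the deposited lists. The deposited lists hold each peak's fold, a linear ratio over the control, its deposited −log10 p and −log10 q, the summit offset, and a deposited score, which was not used. They hold no counts, so depth cannot be read from them. The study states that it gives read numbers in its supplement, and these were not used here.

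Peaks on chromosomes 1 to 22 and X were intersected at 1 bp. All intervals lay within hg38 contigs. Summits were placed by GENCODE release 44 in the order promoter, coding exon, 5′ UTR, 3′ UTR, non-coding exon, intron and intergenic. The fold was compared within 4 strength groups and 10 deciles. Scripts used Python 3.11.15, numpy 2.4.6, pandas 2.3.3, scipy 1.17.1, pysam 0.24.0, samtools 1.23.1 and matplotlib 3.10.9, and were tested on simulated data. Intervals are 95% Wilson intervals. No p-value was computed.

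Members, lists and rules were chosen with earlier results of these data known. Named sites were the 3 strongest shared sites per position class by mean log2 fold, the 5 strongest peaks of each replicate only and of those at coding promoters, the 3 largest fold ratios each way with a fold of at least 10 in the higher replicate, the 5 coding genes with most shared summits, most per kb (at least 20 kb and 5 sites) and most within 5 kb of a start site, and 2 to 4 members of each of 10 gene lists. Some named genes are not reported here. Genes that could be confused with near-identical copies are uncertain. Alternatives were other overlap rules, thresholds, list sizes, promoter definitions and motif settings.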

Additional observations from a re-analysis of the deposited data

Results flagged for a closer look

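Peaks outside chromosomes 1 to 22 and X were not part of the comparison. Replicate 1 had 272 and replicate 2 had 317 such peaks, both above the 16 of the IgG library, with median folds of 8.35 and 3.03. Of the replicate 1 peaks there 189 (69.5%) overlapped a replicate 2 peak, and of the replicate 2 peaks 196 (61.8%) overlapped a replicate 1 peak. Replicate 2, the shorter list elsewhere, was thus the longer one on these contigs.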

How the results depend on the processing

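No paired analysis was possible because replicate numbers recur only in the inputs, which were not analysed here, and no result came from a test. Leaving out a replicate leaves 1 list and gives no shared site. Of 55 alternatives 26 were counted as staying and 29 as moved. Shares stayed when they lay within the spread or interval. Gene counts were held to a wider margin and not to an interval. Thus the 3636 coding genes bound in both at 500 bp counted as staying, against 4843 in the main setting. When promoter peaks also had to overlap each other, the counts of genes bound in 1 replicate only were the main counts, 1643 and 132. Those entries do not test stability.

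The share of replicate 1 overlapped was 80.4% at a −log10 q of at least 3, 74.9% at reciprocal overlap of 50%, 79.4% with summits within 100 bp and 91.8% with lists of equal size. The share of replicate 2 overlapped was 96.6%, 88.9%, 94.3% and 92.6% in the same order, and 97.0% without the windows of 1 Mb that hold 10 or more replicate 2 only peaks. Leaving those windows out, an alternative chosen after seeing the data, took the intergenic share of replicate 2 only peaks from 61.0% to 43.8%. The promoter share of replicate 1, replicate 2 and shared sites was 16.5%, 14.8% and 14.9% at 500 bp, 45.3%, 43.6% and 44.2% at 5 kb, and 16.6%, 14.7% and 14.8% with coding genes only.

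Coding genes bound in both numbered 8661 at 5 kb and 3079 with 1 start site per gene. With lists of equal size those in replicate 1 only numbered 521 and those in replicate 2 only 358. The shared share of promoter peaks was 78.7% and of intergenic peaks 80.8% with the 4 strength groups weighted equally, and 72.8% of promoter peaks had summits within 100 bp. With 1 mismatch allowed the core share was 57.0% for shared sites, 27.1% for replicate 1 only and 8.21% for replicate 2 only.

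The lists end near a q-value of 0.05 and give no signal below it, so a peak found in 1 replicate only was not detectable as a peak in the other and is not shown to be absent there. Depth could not be read from the lists, and depth, enrichment and binding cannot be told apart in the length of a list.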
